A study of Mus musculus with 11 samples.

Results

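The choroid plexus is the frond of epithelium that hangs into the brain ventricles, and 32 genes that this epithelium expresses were followed here in RNA pulled from the hippocampus of female mice. They were chosen by name, as choroid plexus epithelium genes grouped by what their products do, out of 39017 genes in the count table, and genes with no reads in a group were kept. The choice was made with earlier results of these data known. Counts of these genes set beside shares over all genes are therefore a description and no independent support. By role they are 8 genes of ion and water transport, 10 secreted proteins, 7 receptors, uptake proteins and surface enzymes, 2 tight junction genes, 2 transcription factors and 3 intracellular enzymes and adaptors.

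RNA bound to tagged ribosomes was sequenced, as 1 library per mouse, from 11 females aged 12 to 14 months. The groups were 4 ERβ cKO (sham) mice, named F1, F3, F4 and F5, 4 WT (GDX) mice, named F1 to F4, and 3 WT (sham) mice, named F1, F3 and F4. All mice carried the RiboTag allele, which puts an HA tag on the ribosomal protein RPL22 wherever Cre is active, and a Cre transgene driven by the mouse Gfap promoter, so that ribosomes with their RNA could be pulled down with an antibody to HA. The comparisons ask what changes in this RNA when astrocytes lose estrogen receptor β and when ovarian hormones have been absent since early adulthood. In ERβ cKO (sham) mice both copies of the estrogen receptor β gene, Esr2, also had an exon flanked by loxP sites, and these mice had intact ovaries after sham surgery. WT (GDX) mice were gonadectomized at 2 months of age and had no floxed Esr2. WT (sham) mice had sham surgery and were the controls for both other groups, so the comparisons with WT (sham) share the same 3 mice. Cre acts only in cells that use, or whose forebears used, the Gfap promoter, and the pulldown was made from homogenized hippocampus without sorting of cells.

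Choroid plexus epithelium makes cerebrospinal fluid by moving ions and water from blood to ventricle, and its tight junctions form the barrier between blood and fluid. It also secretes carrier proteins and growth factors into the fluid, above all transthyretin, the carrier of thyroid hormone and of retinol-binding protein. The tissue lies beside the hippocampus along the choroid fissure of the lateral ventricle, and it is a target of prolactin and other hormones.

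Library totals ranged from 16956233 to 18190968 counts, with a median of 17685486. The targeted gene Esr2 had counts of 1, 0, 4 and 0 in ERβ cKO (sham) mice, 4, 7, 0 and 0 in WT (GDX) mice, and 2, 4 and 0 in WT (sham) mice, in the order of their numbers. These counts overlapped in all groups and take in exons outside the deleted one, so they do not check the deletion. Against the astrocyte label, the defining astrocyte gene Gfap was at 1225 to 1642 CPM (counts relative to library sizes scaled by TMM) in ERβ cKO (sham), 1537 to 2116 CPM in WT (GDX) and 1357 to 1870 CPM in WT (sham). The neuronal gene Rbfox3 was also present, at 290 to 351, 253 to 303 and 274 to 323 CPM in the same groups. The 32 choroid plexus genes took a small part of each library. Their share was 0.0302 to 0.0313% in ERβ cKO (sham) mice and 0.0319 to 0.0337% in WT (GDX) mice, against 0.0388% in WT (sham) F1, 0.0514% in F3 and 0.0752% in F4. The widest exact 95% interval of these, in WT (sham) F4, ran from 0.0739 to 0.0765% and covers counting error only. In such bulk RNA, fewer cells of a type and less RNA per cell cannot be told apart.

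The windows before the transcription start of 4 genes that were low together are shown, because the study removed an estrogen receptor or its hormone, and they let a reader look for the letters the receptor binds. Each is the 250 bases upstream of a start in RefSeq's annotation of GRCm38.p6 (the same build as mm10), read 5′ to 3′ on the gene's strand. Capitals mark GGTCA or its reverse complement TGACC, either arm of an estrogen response element. Kcnj13 lies on the minus strand at chr1:87394730-87394979, F5 on the plus strand at chr1:164151585-164151834, the first start of Kcne2 on the plus strand at chr16:92292139-92292388, and Cldn2 on the plus strand at chrX:139800558-139800807.
Kcnj13: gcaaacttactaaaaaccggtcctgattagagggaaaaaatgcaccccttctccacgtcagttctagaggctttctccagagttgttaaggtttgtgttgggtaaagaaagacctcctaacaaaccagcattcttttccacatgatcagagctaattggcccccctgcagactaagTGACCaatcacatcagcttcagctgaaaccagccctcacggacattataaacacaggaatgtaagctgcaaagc
F5: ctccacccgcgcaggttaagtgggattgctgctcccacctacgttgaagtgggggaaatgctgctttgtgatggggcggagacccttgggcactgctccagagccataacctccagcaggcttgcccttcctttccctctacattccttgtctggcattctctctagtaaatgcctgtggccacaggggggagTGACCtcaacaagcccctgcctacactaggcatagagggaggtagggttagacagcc
Kcne2: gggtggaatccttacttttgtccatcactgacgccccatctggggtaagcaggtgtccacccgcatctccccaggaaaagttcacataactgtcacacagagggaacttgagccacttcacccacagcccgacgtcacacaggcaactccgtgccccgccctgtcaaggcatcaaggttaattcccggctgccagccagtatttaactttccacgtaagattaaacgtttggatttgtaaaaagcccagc
Cldn2: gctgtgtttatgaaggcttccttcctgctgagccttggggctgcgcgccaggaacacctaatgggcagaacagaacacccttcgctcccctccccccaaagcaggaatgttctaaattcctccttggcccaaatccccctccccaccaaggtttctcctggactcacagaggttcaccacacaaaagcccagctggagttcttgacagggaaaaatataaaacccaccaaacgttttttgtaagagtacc

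RefSeq windows were at hand for 25 of the 32 genes, with 39 starts in all. On either strand, the full element GGTCANNNTGACC was in 0 of these 39 windows and in 0.0639% of 32851 windows over all genes. A single arm is 5 letters long and forms part of the full element. It was in 16 of 39 windows, or 41.0%, against 35.2% of all windows. By gene, it was in at least 1 window of 15 of the 25, or 60.0%, against 38.4% of 27025 genes. The 25 genes had more windows each (39 in all) than the 27025 genes (32851), and so more places for a match. Of the 4 windows shown, Kcnj13 and F5 held 1 arm each, and Kcne2 and Cldn2 held none. A second start of Kcne2, at chr16:92295366-92295615, held 1 arm. The core TAATCC, in either direction, which the choroid plexus factor OTX2 binds, was in 3 of 39 windows (7.69%) and in 6.25% of all windows. A match describes the letters only and says nothing of binding.

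Among the ion and water transport genes, Kcnj13, Slc4a5 and Kcne2 were near 0 outside WT (sham). Changes were called with edgeR's quasi-likelihood test at a Benjamini-Hochberg adjusted p under 0.1, over all genes tested in the pair of groups. When ERβ cKO (sham) was set against WT (sham), 3 of the 29 choroid plexus genes that passed the count filter were called lower and 0 higher, where 0.015% of all 19938 genes tested were called lower and 0.015% higher. All 3 were transport genes, Clic6, Kcnj13 and Slc4a5, and no other gene tested was called lower there. For WT (GDX), 9 of 29 were called lower and 0 higher, where 0.112% of 19695 genes were called lower and 0.325% higher, and 4 of the 9 were the transport genes Slc4a5, Slc13a4, Clic6 and Kcne2. Likewise 0 were called higher in both by DESeq2 and by edgeR's other tests (exact and likelihood ratio), while Igfbp2 was called higher in WT (GDX) with no filter. The filter removed genes with no count in more than 3 of the 7 mice compared, and so dropped the members that were most completely absent, which are described by their counts.

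Kcnj13 encodes an inwardly rectifying potassium channel of the apical membrane of this epithelium (chromosome 1, 87386363 to 87394729, minus strand). It had counts of 1, 1, 0 and 0 in ERβ cKO (sham) mice, 0 in each of 4 WT (GDX) mice, and 9, 38 and 54 in the WT (sham) mice. Neither group overlapped WT (sham). The fitted log2 fold change in ERβ cKO (sham) was -5.78 ± 0.91 (SE; adjusted p = 0.0218, edgeR). With 0 counts, WT (GDX) was at least 45.3-fold lower than WT (sham) pooled over its mice, set against a floor of 3 counts over the group. Its exons overlap those of Gigyf2 on the other strand, and since the strand setting of the counting is not given, some reads may belong to that gene.

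Slc4a5, a sodium bicarbonate cotransporter, had counts of 0, 0, 2 and 2 in ERβ cKO (sham) mice, 1, 1, 1 and 0 in WT (GDX) mice, and 10, 49 and 80 in WT (sham). The lowest WT (sham) mouse stood above every other mouse. It fell by 5.40 ± 0.86 on the log2 scale in ERβ cKO (sham) (adjusted p = 0.0305) and by 5.76 ± 0.78 in WT (GDX) (adjusted p = 0.000788), by edgeR.

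Clic6, an intracellular chloride channel family member, kept some reads in every mouse. Its counts were 9, 9, 14 and 8 in ERβ cKO (sham) mice, 31, 18, 11 and 7 in WT (GDX) mice, and 51, 122 and 187 in WT (sham). Clic6 fell by 3.59 ± 0.42 on the log2 scale in ERβ cKO (sham) (adjusted p = 0.000801, edgeR), the smallest p of any choroid plexus gene there, and by 2.86 ± 0.51 in WT (GDX) (adjusted p = 0.0573).

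Kcne2 encodes a small subunit that associates with potassium channels at the apical face of the epithelium. One ERβ cKO (sham) mouse had 1 count and the others 0, WT (GDX) mice had 3, 0, 0 and 0, and WT (sham) mice had 10, 21 and 27. It was called lower in WT (GDX) (log2 fold change -4.50 ± 1.0, adjusted p = 0.0573, edgeR) and not in ERβ cKO (sham) (-5.72 ± 1.09, adjusted p = 0.117). Slc13a4, a sulfate transporter, had 33, 22, 18 and 8 counts in ERβ cKO (sham) mice, 13, 10, 16 and 3 in WT (GDX) mice, and 50, 41 and 64 in WT (sham). It fell by 2.30 ± 0.45 in WT (GDX) (adjusted p = 0.0276, edgeR) and was not called in ERβ cKO (sham) (-1.36 ± 0.43, adjusted p = 0.685). Both genes had no overlap between WT (sham) and either other group.

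The water channel Aqp1 had 19, 3, 11 and 8 counts in ERβ cKO (sham) mice, 13, 6, 3 and 10 in WT (GDX) mice, and 15, 19 and 42 in WT (sham). Only WT (GDX) stood clear of WT (sham). Neither difference was called, with an adjusted p of 0.924 for ERβ cKO (sham) and of 0.372 for WT (GDX) by edgeR. Car12, a membrane carbonic anhydrase, and Trpm3, a cation channel, had far more counts and small fold changes. Car12 was at 52.2 ± 4.18 CPM in ERβ cKO (sham) (SD, n = 4), 45.9 ± 4.33 CPM in WT (GDX) (n = 4) and 58.7 ± 2.26 CPM in WT (sham) (n = 3), with log2 fold changes of -0.17 ± 0.12 and -0.36 ± 0.10 that were not called. Both groups nonetheless lay below WT (sham) without overlap. Trpm3 was at 46.1 ± 10.1, 53.1 ± 10.2 and 62.6 ± 22 CPM in the same groups, which overlapped. An antisense gene, Gm27151, overlaps exons of Trpm3.

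**Figure D1:**
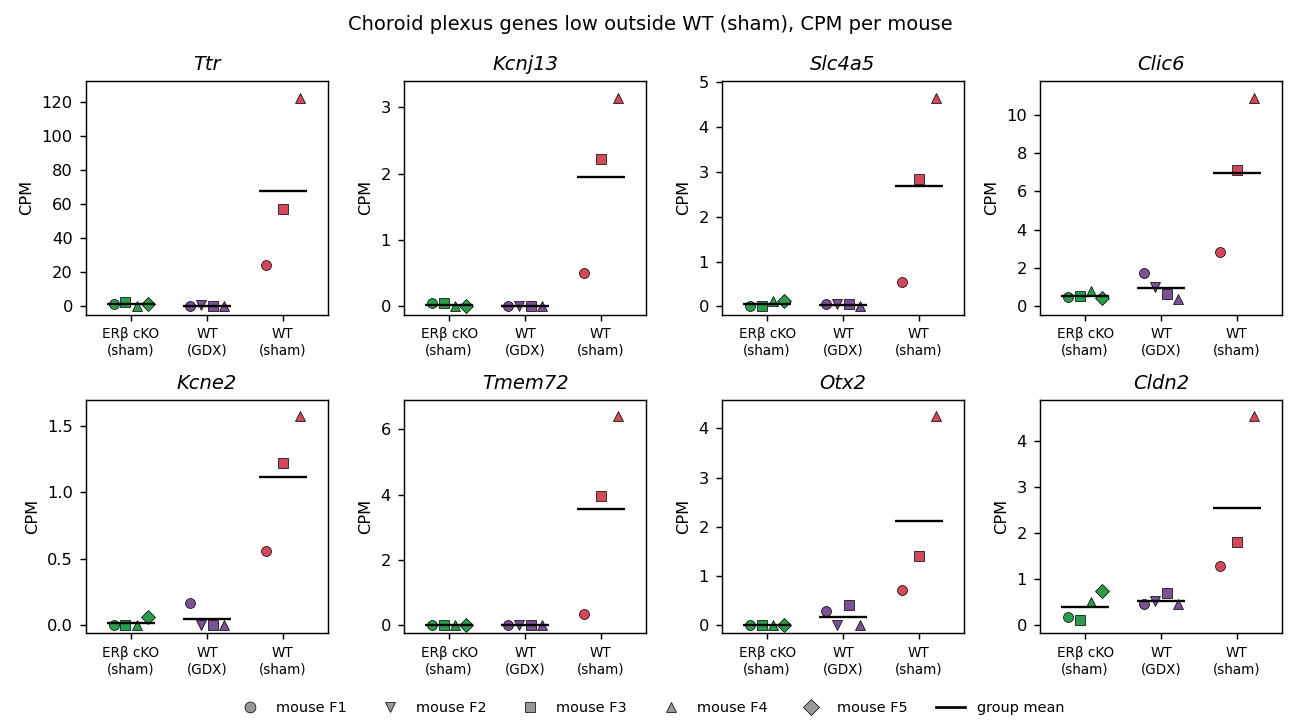
Levels of 8 choroid plexus genes in each mouse, in CPM on a linear axis from 0, by group (points, 1 mouse each; bars, group means). In every panel the 3 WT (sham) mice stand above all ERβ cKO (sham) and WT (GDX) mice, with WT (sham) F4 highest and F1 lowest.

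Among the secreted proteins, transthyretin showed the widest difference. Ttr counts were 22, 46, 0 and 28 in ERβ cKO (sham) and 4, 12, 2 and 3 in WT (GDX), against 439, 979 and 2102 in WT (sham), with no overlap between WT (sham) and the others. On the CPM scale this was 1.37 ± 1.1 (SD, n = 4), 0.298 ± 0.261 (n = 4) and 67.9 ± 49.9 (n = 3). The fitted log2 fold change in WT (GDX) was -7.80 ± 0.92 (adjusted p = 0.0793, edgeR), which was called. That in ERβ cKO (sham), -5.63 ± 0.95, was not (adjusted p = 0.486), with an unadjusted p of 0.00168.

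Igf2, insulin-like growth factor 2, had 92, 57, 58 and 42 counts in ERβ cKO (sham) mice, 61, 69, 39 and 45 in WT (GDX) mice, and 122, 171 and 369 in WT (sham). It fell by 2.06 ± 0.38 in WT (GDX) (adjusted p = 0.0780, edgeR), while -1.85 ± 0.37 in ERβ cKO (sham) was not called (adjusted p = 0.239). Neither group overlapped WT (sham). The antisense transcript Igf2os overlaps its exons and cannot be told apart without the strand setting. Enpp2, the secreted lysophospholipase autotaxin, was at 28.4, 22.9, 22.9 and 26.4 CPM in ERβ cKO (sham), 22.4, 18.6, 25.6 and 29.0 CPM in WT (GDX), and 47.0, 87.3 and 145 CPM in WT (sham). Neither group overlapped WT (sham), but neither log2 fold change (-1.88 ± 0.35 and -1.96 ± 0.41) passed, with adjusted p of 0.441 and 0.273 by edgeR.

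Coagulation factor V, F5, had 6, 4, 24 and 3 counts in ERβ cKO (sham) mice, 2, 11, 6 and 5 in WT (GDX) mice, and 21, 127 and 190 in WT (sham). ERβ cKO (sham) F4, at 24 counts, lay just above WT (sham) F1, so that pair overlapped, while WT (GDX) lay below WT (sham). The collagen Col8a1 had 6 to 18 counts in ERβ cKO (sham), 6 to 18 in WT (GDX), and 18, 27 and 98 in WT (sham). Lbp, the lipopolysaccharide-binding protein, had 10 to 58 counts in ERβ cKO (sham), 0 to 39 in WT (GDX), and 85, 83 and 53 in WT (sham), and was among the few genes lowest in WT (sham) F4. Col8a1 overlapped in both comparisons, and Lbp only in that with ERβ cKO (sham). None of F5, Col8a1 and Lbp was called in either. Exons of F5 and Enpp2 overlap the antisense genes Gm16548 and Gm26684, which had 20 and 5 counts over the 11 libraries.

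Wfdc2, a secreted protease inhibitor-like protein, had 1, 0, 0 and 0 counts in ERβ cKO (sham), 0 in each WT (GDX) mouse, and 0, 10 and 7 in WT (sham), at least 7.62-fold lower in WT (GDX) than in WT (sham), although the groups overlapped at 0. The Ecrg4 gene, listed as 1500015O10Rik, had 7 to 29, 10 to 24 and 18 to 41 counts in ERβ cKO (sham), WT (GDX) and WT (sham), and Sostdc1, an inhibitor of BMP and WNT signals, had 15 to 45, 25 to 48 and 27 to 46. Both overlapped between all groups. Igfbp2, which binds insulin-like growth factors and is also made by astrocytes, had its highest level in WT (GDX). It was at 36.6, 45.8, 49.6 and 54.6 CPM in ERβ cKO (sham), 69.0, 69.9, 64.3 and 57.2 CPM in WT (GDX), and 56.9, 40.1 and 55.7 CPM in WT (sham). WT (GDX) lay above WT (sham) without overlap, the sole choroid plexus gene to do so, and was not called (log2 fold change 0.35 ± 0.12, adjusted p = 0.303, edgeR), but with no filter on low counts it was (adjusted p = 0.0792, where 0.823% of genes were called higher). Of a list of 20 astrocyte genes, 3 were also called higher in WT (GDX) (5 by DESeq2, and 0.325% of genes) and 11 were higher at an unadjusted p under 0.05 (4.5% of genes), while 2 had negative log2 fold changes (51.4% of genes), and their median was 0.23. Their part in the Igfbp2 difference was not tested.

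Receptors, uptake proteins and surface enzymes gave 1 call of 6 tested in WT (GDX), and in ERβ cKO (sham) 0 of 6 (0.112% and 0.015% of genes, edgeR). At an unadjusted p under 0.05, 5 were lower in WT (GDX) and 2 in ERβ cKO (sham) (3.48% and 2.09% of genes). DESeq2 and both other edgeR tests called 3 lower in WT (GDX) and 0 in ERβ cKO (sham). Of all 7, 4 were lower without overlap in WT (GDX) and 2 in ERβ cKO (sham) (3.34% and 2.95% of genes). The call was Kl, klotho, a coreceptor for fibroblast growth factor 23 that choroid plexus also sheds. Kl was at 25.4, 27.1, 23.5 and 19.8 CPM in ERβ cKO (sham), 22.4, 21.0, 24.8 and 20.7 CPM in WT (GDX), and 25.2, 39.9 and 46.1 CPM in WT (sham). WT (GDX) lay just below WT (sham) F1 and fell by 0.74 ± 0.16 on the log2 scale (adjusted p = 0.0573, edgeR). ERβ cKO (sham) overlapped it and was not called (-0.63 ± 0.18, adjusted p = 0.566).

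Tmem72, a membrane protein of kidney and choroid plexus, had 0 counts in all 8 ERβ cKO (sham) and WT (GDX) mice, against 6, 68 and 110 in WT (sham). Each group was at least 82.5-fold lower than WT (sham) pooled over its mice, by the floor of 3 counts. The WT (sham) mice ranged from 0.333 to 6.40 CPM, a spread this bound leaves out. The filter took the gene out of both tests. When every gene with a count was tested, it was called lower in WT (GDX) (adjusted p = 6.15e-19) and not in ERβ cKO (sham) (adjusted p = 0.732), on counts of 0 in both groups.

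Prlr, the prolactin receptor, had 96, 87, 110 and 64 counts in ERβ cKO (sham) mice, 66, 92, 84 and 70 in WT (GDX) mice, and 71, 123 and 253 in WT (sham), which overlapped both other groups. Ace, angiotensin-converting enzyme, had 120, 137, 146 and 121 counts, then 145, 83, 70 and 63, and 150, 167 and 330 in the same 3 groups. It did not overlap between WT (sham) and either group, and neither difference was called. Its antisense neighbour Gm11651 overlaps its exons. Folr1, the folate receptor that carries folate into the cerebrospinal fluid, had 3, 0, 32 and 5 counts in ERβ cKO (sham) mice, 17, 10, 10 and 3 in WT (GDX) mice, and 12, 39 and 22 in WT (sham), which overlapped. Steap1, a metalloreductase family member, had 0 to 9, 0 to 2 and 3 to 29 counts in those groups, and WT (GDX) lay below WT (sham) without a call (adjusted p = 0.193, edgeR). Mfrp, a frizzled-related membrane protein, was at 23.8 ± 5.64, 29.7 ± 3.59 and 27.2 ± 6.13 CPM in the same groups (SD, n = 4, 4 and 3), which overlapped. It shares exons on the same strand with C1qtnf5, and its counts are uncertain for that reason.

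The tight junction pair differed within itself. Cldn2, the claudin of leaky epithelia such as choroid plexus, had 3, 2, 9 and 13 counts in ERβ cKO (sham) mice, 8, 9, 12 and 8 in WT (GDX) mice, and 23, 31 and 78 in WT (sham). It was called lower in WT (GDX) (log2 fold change -2.26 ± 0.48, adjusted p = 0.0496, edgeR) and not in ERβ cKO (sham) (-2.71 ± 0.61, adjusted p = 0.239), though neither group overlapped WT (sham). Cldn1, a barrier-forming claudin of many epithelia, had 16 to 31, 12 to 23 and 12 to 38 counts in the 3 groups, which overlapped, and adjusted p of 0.982 and 0.777.

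Of the transcription factors, Otx2, a homeobox factor needed for choroid plexus to form and persist, had 0 counts in all 4 ERβ cKO (sham) mice, 5, 0, 7 and 0 in WT (GDX), and 13, 24 and 73 in WT (sham). ERβ cKO (sham) was at least 49.3-fold lower than WT (sham) pooled over its mice. The filter kept Otx2 out of that test. In WT (GDX) its log2 fold change of -3.58 ± 0.85 missed the threshold (adjusted p = 0.121, edgeR), and no WT (GDX) mouse overlapped WT (sham). Msx1, a homeobox gene of the dorsal midline, was at 8.45 ± 1.91 CPM in ERβ cKO (sham), 11 ± 1.15 CPM in WT (GDX) and 14.0 ± 1.69 CPM in WT (sham) (SD, n = 4, 4 and 3). ERβ cKO (sham) lay below WT (sham) without overlap, and its log2 fold change of -0.72 ± 0.21 was not called (adjusted p = 0.541).

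Of the 3 intracellular genes, Calml4, a calmodulin-like protein of epithelial brush borders, was the one called. It had 5, 8, 30 and 11 counts in ERβ cKO (sham) mice, 21, 20, 14 and 8 in WT (GDX) mice, and 53, 38 and 59 in WT (sham), without overlap. It fell by 1.67 ± 0.40 in WT (GDX) (adjusted p = 0.0793, edgeR) and was not called in ERβ cKO (sham) (-1.89 ± 0.50, adjusted p = 0.451). Rdh5, a retinol dehydrogenase, was at 19.0 ± 4.38, 22.4 ± 1.64 and 19.7 ± 1.03 CPM in ERβ cKO (sham), WT (GDX) and WT (sham), and Cab39l, a scaffold of the LKB1 kinase complex, was at 29.3 ± 3.40, 36.1 ± 2.85 and 34.2 ± 2.06 CPM (SD, n = 4, 4 and 3). Both overlapped between each group and WT (sham). Rdh5 shares exons with Bloc1s1 and Cab39l with Cdadc1, so their levels are uncertain.

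**Figure D2:**
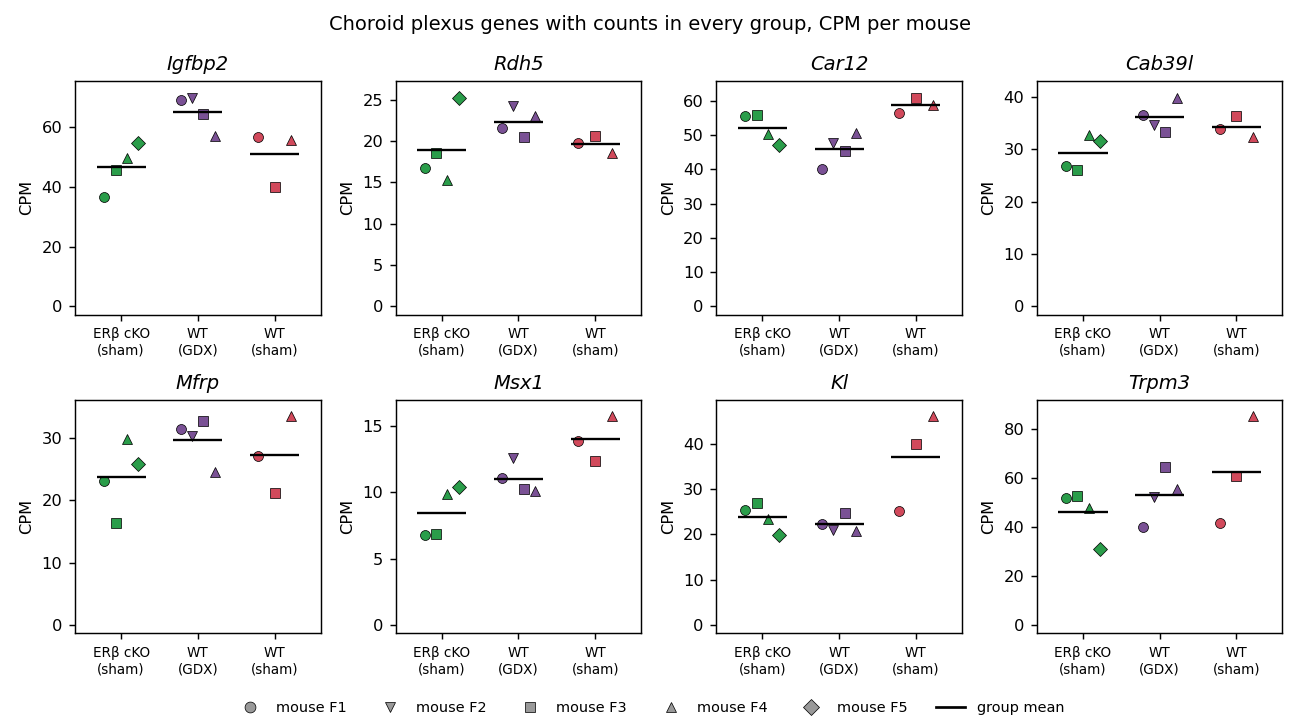
Levels of 8 choroid plexus genes that kept counts in every mouse, in CPM on a linear axis from 0, by group (points, 1 mouse each; bars, group means). Mfrp, Rdh5, Trpm3 and Cab39l overlap WT (sham) in both other groups, while Igfbp2 is highest in WT (GDX), at 57.2 to 69.9 CPM, and Kl is highest in WT (sham) F3 and F4.

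Over all 32 genes, 15 were lower in every ERβ cKO (sham) mouse than in any WT (sham) mouse, where 2.95% of all genes tested were. None was higher without overlap, where 3.39% of genes were. At an unadjusted p under 0.05, 17 of the 29 tested were lower and 0 higher, where 2.09% of genes were lower and 3.24% higher. All 29 had a negative log2 fold change, where 49.2% of genes did, and their median was -1.32, against 0.00 over all genes. A list of 20 astrocyte genes was also negative in 20 of 20 there, with a median of -0.18 and 0 called by edgeR or DESeq2. At an unadjusted p under 0.05, 4 of these astrocyte genes were lower. Among the choroid plexus genes, Car12, Mfrp, Igfbp2, Cab39l and Rdh5 lay at -0.22 to -0.05. In WT (GDX), 19 of 32 were lower without overlap (3.34% of genes) and 1 was higher (5.09% of genes). At an unadjusted p under 0.05, 20 were lower and 1 higher (3.48% and 4.5% of genes), and 25 of 29 fold changes were negative (51.4% of genes), with a median of -1.67 against -0.01. A gene at 0 in most mice of the other group could pass the filter only if every WT (sham) mouse held counts. The filter also dropped Otx2, Tmem72 and Wfdc2 for ERβ cKO (sham), and Kcnj13, Tmem72 and Wfdc2 for WT (GDX), although WT (sham) held counts of them. The medians of the choroid plexus genes therefore describe only those that passed.

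Other tests called more of them. For ERβ cKO (sham), DESeq2 called 9 lower (0.12% of genes), the exact test of edgeR 9 (0.11%) and the likelihood ratio test 11 (0.12%), and each of the 3 added Ttr, Enpp2, Igf2, Kcne2 and Cldn2 to the 3 transport genes. Tested with no filter, 7 were called there (0.0813% of genes), Otx2 among them. In WT (GDX), DESeq2 called 15 (0.284%), the exact test 15 (0.218%) and the likelihood ratio test 15 (0.279%), and with no filter 19 were called (0.378%), Kcnj13, Otx2 and Tmem72 among them. Taking the mouse number as a block gave 5 in ERβ cKO (sham) (0.251% of genes) and 11 in WT (GDX) (0.188%). A mouse whose number is missing from the other group adds nothing to the difference in that fit.

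Leaving out 1 mouse at a time kept the calls of Clic6, Kcnj13 and Slc4a5 in ERβ cKO (sham) in 7 of 7 fits. When WT (sham) F1 was dropped, 8 genes were called there, where 12 of all 20559 genes were called lower. Dropping F4 or F5 of the ERβ cKO (sham) mice gave 6, where 14 of 20581 and 37 of 20299 genes were called lower. Dropping their F1 gave 5, where 5 of 20249 genes were. Dropping any of the others gave 3 or 4. There, 4 of 20578 genes were called lower without ERβ cKO (sham) F3, 5 of 20732 without WT (sham) F3 and 9 of 20600 without WT (sham) F4. In WT (GDX), Slc4a5 and Slc13a4 were called in 7 of 7 fits, Clic6 and Kcne2 in 4, Cldn2, Igf2, Kl and Ttr in 2, and Calml4 in 0. Of the WT (sham) mice, dropping F1 gave 14 calls there, dropping F4 gave 8 and dropping F3 gave 2. Over all genes, these fits called 42 of 20194, 64 of 20211 and 4 of 20361 lower. Of the WT (GDX) mice, dropping F1 or F4 gave 6, where 11 of 20118 and 26 of 20279 genes were called lower. Dropping F2 or F3 gave 3, where 12 of 20087 and 5 of 20147 genes were.

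**Figure D3:**
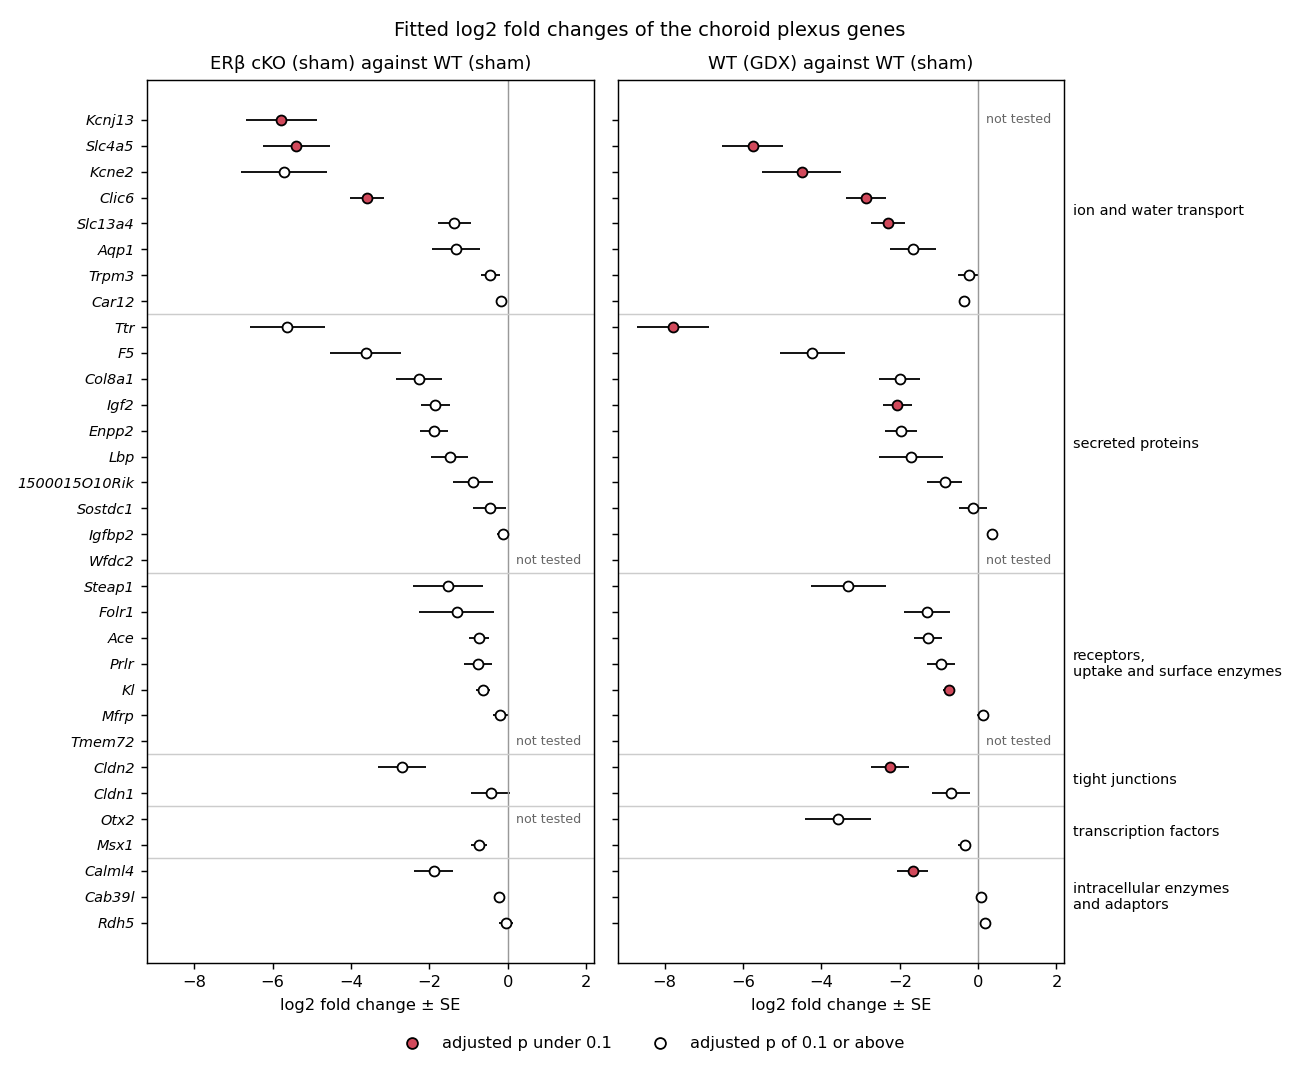
Fitted log2 fold changes with their SE for the 32 choroid plexus genes, by role (ERβ cKO (sham) against WT (sham), left; WT (GDX) against WT (sham), right; filled points, adjusted p under 0.1). All 29 tested points on the left lie below 0, as do 25 of 29 on the right, and both panels share the same WT (sham) mice.

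Set against each other, ERβ cKO (sham) and WT (GDX) differed in 1 of the 27 choroid plexus genes tested. Igfbp2 was called lower in ERβ cKO (sham) (log2 fold change -0.49 ± 0.12, adjusted p = 0.0518, edgeR), at 36.6 to 54.6 CPM against 57.2 to 69.9 CPM in WT (GDX), where 2.22% of 19759 genes were called lower. Of the 20 astrocyte genes, 14 were called lower too (17 by DESeq2), with negative log2 fold changes in 20 of 20 and a median of -0.46. They summed to 28675 to 35660 CPM in ERβ cKO (sham) mice, 40704 to 48071 CPM in WT (GDX) mice, and 33487 to 38476 CPM in WT (sham), and their part in the Igfbp2 call was not tested. None was called higher by edgeR, where 1.93% of genes were, and DESeq2 called Ttr higher. The Igfbp2 call was lost when F1 (adjusted p = 0.169) or F3 (0.121) of the ERβ cKO (sham) mice was dropped, and when F1 (0.147), F2 (0.140) or F3 (0.141) of the WT (GDX) mice was. When ERβ cKO (sham) F5 was dropped, 4 of the choroid plexus genes were called lower, where 1397 of all 20023 genes were. Ttr was the furthest apart in the other direction, at 0 to 46 counts in ERβ cKO (sham) and 2 to 12 in WT (GDX), which overlapped (log2 fold change 2.16 ± 0.87, adjusted p = 0.225). Cab39l was lower in ERβ cKO (sham) without overlap (-0.31 ± 0.11, adjusted p = 0.168). The median over the 27 was 0.06, against 0.00 over all genes, and 13 of 27 fold changes were negative (49.8% of genes). Of the 32, 2 were lower and 0 higher without overlap (4.88% and 4.94% of genes), and 3 were lower and 2 higher at an unadjusted p under 0.05 (8.36% and 8.82%). The block by mouse number gave 3 calls lower (8.28% of genes).

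The 3 WT (sham) mice also differed from each other in many of these genes. WT (sham) F4 was the highest of the 3 in 22 of 32 genes and F1 the lowest in 22. The order F4, F3, F1 from high to low held for 18 genes, and it held for 18% of all 19938 genes tested. Between F4 and F1 the ratio of CPM was 19.2 for Tmem72, 9.49 for F5, 8.39 for Slc4a5, 6.30 for Kcnj13 and 5.02 for Ttr, but 1.04 for Car12, 0.98 for Igfbp2 and 0.94 for Rdh5. Among the 9 genes whose ERβ cKO (sham) mean was under 10% of the WT (sham) mean, the 8 with a count in WT (sham) F1 had ratios of 2.83 to 19.2. The 5 genes at 85% or more, Car12, Mfrp, Igfbp2, Cab39l and Rdh5, had ratios of 0.94 to 1.24. Across the 31 genes with a ratio, Spearman's rho of the ratio with the percent left was -0.75 for ERβ cKO (sham) and -0.79 for WT (GDX). Genes are not independent replicates, and both measures use the same WT (sham) mice, so this is a description.

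**Figure D4:**
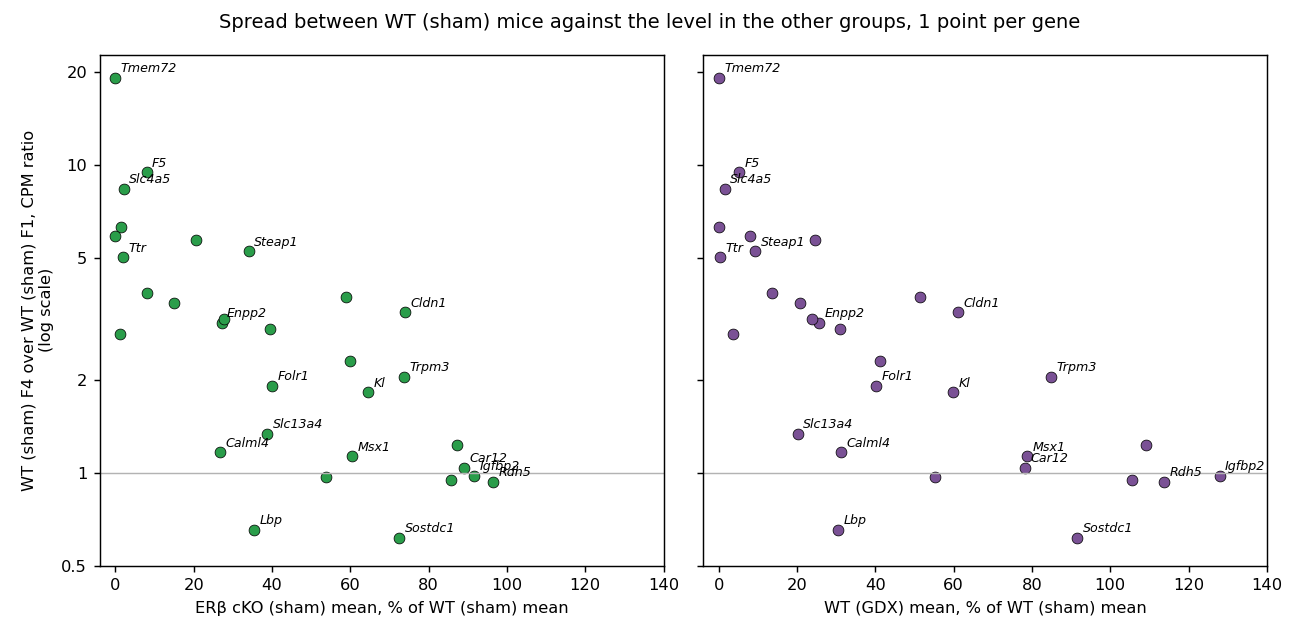
Ratio of WT (sham) F4 to WT (sham) F1 in CPM (vertical, log scale) against the group mean as a percent of the WT (sham) mean (horizontal; ERβ cKO (sham) left, WT (GDX) right) for 31 choroid plexus genes. Genes at the far left have ratios from 2.83 (Kcne2) to 19.2 (Tmem72), and genes at the right, such as Rdh5 and Igfbp2, lie near 1.

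Per kilobase of exon, the order of levels also differed. Ttr stood at 1.16 CPM per kilobase in ERβ cKO (sham) mice and 0.251 in WT (GDX) mice, below Igfbp2, which stood at 25.3 and 35.2 in those groups. In WT (sham), Ttr led at 57.2 CPM per kilobase, ahead of Igfbp2 at 27.6, Enpp2 at 16.1, Car12 at 7.72 and Rdh5 at 7.0. Of the 32 genes, 19 had a mean under 50% of that in WT (sham) for ERβ cKO (sham), and 20 for WT (GDX), while 2 and 5 had 90% or more.

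Genes of the same pathways outside the 32 were also examined. Of all genes tested, 0.015% were called lower and 0.015% higher in ERβ cKO (sham) by the quasi-likelihood test. In WT (GDX) these shares were 0.112% and 0.325%. At an unadjusted p under 0.05, 2.09% were lower and 3.24% higher in ERβ cKO (sham), and 3.48% and 4.5% in WT (GDX). By edgeR, 0 of 20 further genes of fluid and ion transport were called against WT (sham) in either group. At an unadjusted p under 0.05, 2 of them were lower in ERβ cKO (sham), and 4 were lower and 2 higher in WT (GDX), where DESeq2 called 1 higher. Of 16 genes of thyroid hormone and retinoid handling 0 were called (3 lower in ERβ cKO (sham), 1 lower and 2 higher in WT (GDX) at an unadjusted p under 0.05, and 1 lower in ERβ cKO (sham) by DESeq2). Of 13 genes of the insulin-like growth factor axis, 0 were called by any of the tests and 0 of the 12 tested had an unadjusted p under 0.05. Of 12 further tight junction genes 0 were called by any of the tests, with 1 higher in ERβ cKO (sham), and 1 lower and 1 higher in WT (GDX), at an unadjusted p under 0.05. Of 12 transcription factors of choroid plexus and roof plate 0 were called by edgeR's quasi-likelihood test. At an unadjusted p under 0.05, 4 were lower in ERβ cKO (sham), and 2 lower and 2 higher in WT (GDX). In WT (GDX), 1 was called lower by DESeq2 and by each of edgeR's other tests. Of the 11 tested, 11 had negative log2 fold changes in ERβ cKO (sham) (median -0.52, 49.2% of genes negative). In WT (GDX) 7 of 11 did (median -0.13, 51.4% of genes negative). Without overlap, 3 of the 12 were lower in ERβ cKO (sham) (2.95% of genes). In WT (GDX), 1 was lower and 1 higher without overlap (3.34% and 5.09% of genes). Of 7 genes of prolactin receptor signalling 0 were called by any of the tests, with 0 lower in ERβ cKO (sham), and 3 lower in WT (GDX), at an unadjusted p under 0.05. Among them the pathway inhibitors Socs1 and Socs3 had log2 fold changes of -2.32 ± 0.96 and -1.66 ± 0.53 in WT (GDX), with adjusted p of 0.510 and 0.286. Of 18 other genes enriched in choroid plexus, Wdr86 and Sulf1 were called lower in WT (GDX), 2 of the 16 tested. At an unadjusted p under 0.05, 4 were lower and 1 higher in WT (GDX). In ERβ cKO (sham) 0 of 17 were called by the quasi-likelihood test, and 3 were lower and 1 higher at that p. DESeq2 and each of the other edgeR tests called 1 lower in ERβ cKO (sham). Log2 fold changes were negative for 10 of the 17 tested in ERβ cKO (sham) (median -0.10) and for 12 of the 16 in WT (GDX) (median -0.25). The 18 genes summed to 1614 to 2736 CPM in ERβ cKO (sham), 2536 to 2944 CPM in WT (GDX) and 2117 to 2467 CPM in WT (sham). Wdr86 had 1, 6, 2 and 1 counts in ERβ cKO (sham) mice, 0, 2, 1 and 1 in WT (GDX) mice, and 13, 52 and 155 in WT (sham), the same pattern over WT (sham) mice as most of the 32. Its log2 fold change was -6.06 ± 0.99 in WT (GDX) (adjusted p = 0.0573) and -4.83 ± 0.87 in ERβ cKO (sham) (adjusted p = 0.177). Sulf1, an extracellular sulfatase, had -0.97 ± 0.22 (adjusted p = 0.0573) and -0.93 ± 0.25 (adjusted p = 0.451).

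Markers of tissues that lie beside the choroid plexus were set beside these values. The 27 genes of ependyma and motile cilia summed to 105 to 127 CPM in ERβ cKO (sham), 82.0 to 135 CPM in WT (GDX), and 137 to 164 CPM in WT (sham), and 23 (ERβ cKO (sham)) and 24 (WT (GDX)) of them had negative log2 fold changes, with medians of -0.58 and -0.39, where 49.2% and 51.4% of all genes were negative. Drc7, a subunit of the axonemal dynein regulatory complex, was called in WT (GDX) (log2 fold change -2.04 ± 0.39, adjusted p = 0.0276, edgeR). By the quasi-likelihood test, 0 were called in ERβ cKO (sham). At an unadjusted p under 0.05, 7 were lower in ERβ cKO (sham) mice and 6 in WT (GDX) mice (2.09% and 3.48% of genes), and DESeq2 and both other edgeR tests called 2 lower in each. The defining ependymal factor Foxj1 was at 4.74 to 12.9, 4.99 to 11.8 and 12.5 to 16.1 CPM in the 3 groups. Over 10 genes of meninges the sum was 122 to 167, 140 to 148 and 149 to 172 CPM, and 0 were called against WT (sham) by edgeR or DESeq2 (1 lower in ERβ cKO (sham), and 4 lower in WT (GDX), at an unadjusted p under 0.05). Of these 10, 6 (ERβ cKO (sham)) and 8 (WT (GDX)) had negative log2 fold changes, with medians of -0.17 and -0.79. Dcn made up most of the sum, at 88.5 to 115, 106 to 123 and 111 to 149 CPM in the 3 groups. Col1a1 was at 2.27 to 3.45, 1.01 to 1.88 and 2.15 to 4.01 CPM, so that only WT (GDX) lay below WT (sham). The 5 blood genes summed to 0.281 to 7.62 CPM in ERβ cKO (sham), 2.81 to 3.51 CPM in WT (GDX), and 5.54, 3.78 and 25.7 CPM in the WT (sham) mice. All 5 had negative log2 fold changes in both comparisons, with medians of -1.72 for ERβ cKO (sham) and -1.96 for WT (GDX). By the quasi-likelihood test 0 were called. In WT (GDX), 3 were lower at an unadjusted p under 0.05 and 3 without overlap, and DESeq2 and both other edgeR tests called 1 lower, while in ERβ cKO (sham) 0 were lower at that p, 2 lay below without overlap, and 0 were called by any of these tests. Blood was highest in the mouse with the most choroid plexus RNA. The hemoglobin gene Hba-a1 had 0 counts in ERβ cKO (sham) F1 and F4 and in WT (sham) F3. By group, the transport members summed to 80.0 to 111, 83.6 to 112 and 106 to 171 CPM, and the secreted members to 75.6 to 88.8, 91.8 to 99.9 and 147 to 368 CPM. The part of ependyma, meninges or blood in the choroid plexus differences was not tested.

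**Figure D5:**
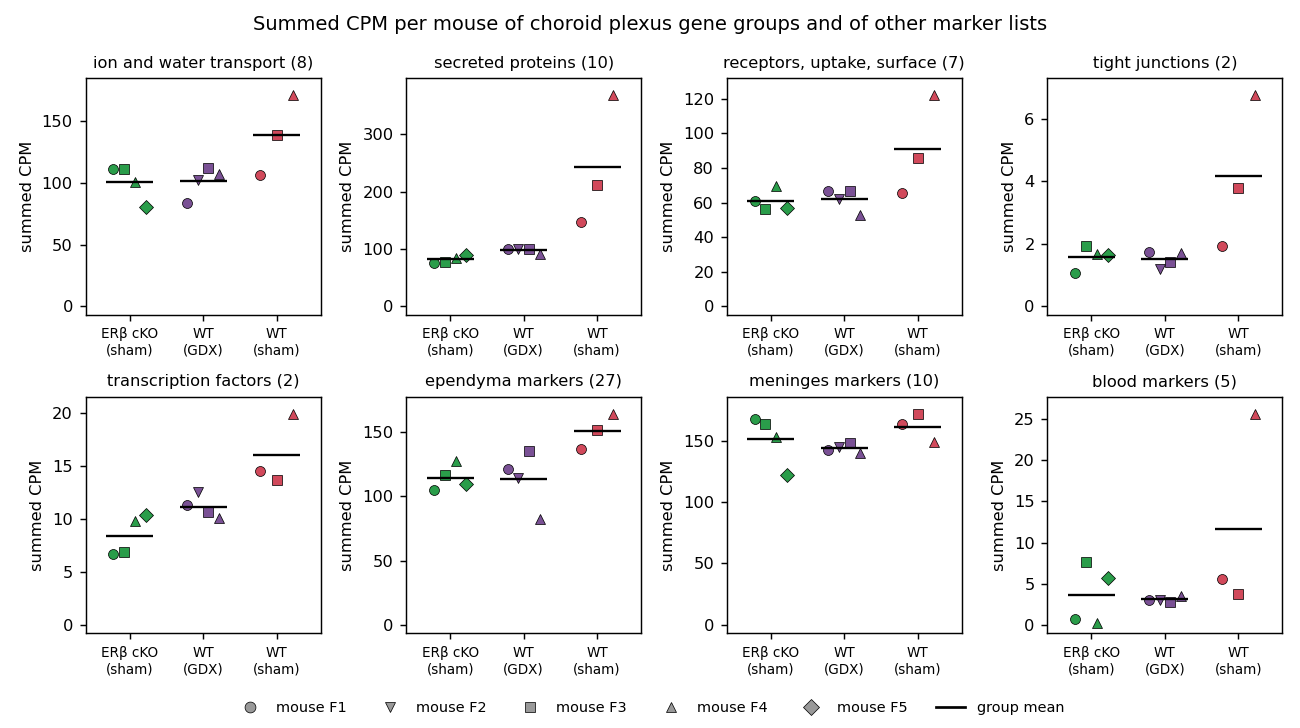
Summed CPM per mouse of 5 role groups of choroid plexus genes and of 3 marker lists of neighbouring tissues (number of genes in parentheses; points, 1 mouse each; bars, group means; linear axes from 0). Secreted members lie at 75.6 to 99.9 CPM in the ERβ cKO (sham) and WT (GDX) mice, against 147 to 368 CPM in WT (sham), ependymal markers at 82.0 to 135 against 137 to 164 CPM, and blood markers at 0.281 to 7.62 CPM in ERβ cKO (sham) mice and 2.81 to 3.51 CPM in WT (GDX) mice, against 3.78 to 25.7 CPM in WT (sham), so that ERβ cKO (sham) overlaps WT (sham) and WT (GDX) lies below it.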

How the data were processed

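Per the labels and the study's methods, the authors made libraries with a stranded kit from RNA bound to HA-tagged ribosomes, used bcl2fastq 2.17, FastQC and Trimmomatic, and aligned and counted single-end reads on mm10 with QuasR. They deposited raw counts per Ensembl gene, 1 column per mouse. For the strand setting, the annotation release and the other versions, the sources used here give nothing. Names and places came from GENCODE M21 (37607 of 39017 identifiers matched) and promoter windows from RefSeq.

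Genes at 0 in over 3 of the samples of a pair of groups were left out, and edgeR 4.0.16 (R 4.3.3) was run with TMM, robust quasi-likelihood estimation and Benjamini-Hochberg adjustment, with a call at an adjusted p under 0.1. Fitted fold changes used a prior count of 0.125, so those of genes near 0 depend on it. The SE was the size of the log2 fold change divided by the square root of the quasi-likelihood test's F statistic. It therefore depends on the prior count too. Folds against a group at 0 used 3 counts, summed over its mice, as the floor. They set it against WT (sham) pooled over its mice, so "at least" covers counting only and not the spread between mice. The fits were checked on simulated counts. Nothing states that mice of 1 group came from separate litters, so p-values measure the spread between these mice.

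The members and the other gene lists were chosen with earlier results of these data known. All members are named. From each other list the text names a few of the 2 smallest p in a comparison with WT (sham), any gene called there and defining markers. Alternatives were other normalizations (DESeq2 size factors, library size), filters, tests (likelihood ratio and exact tests of edgeR, and DESeq2 1.42.0), 1 fit of all 3 groups, a replicate block, an adjusted p under 0.05, and leaving out each mouse. A prior count of 2 was added after the data were seen.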

Additional observations from a re-analysis of the deposited data

Results flagged for a closer look

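In ERβ cKO (sham), the F4 mouse stood apart from the other 3 mice in Folr1, at 1.80 CPM against 0 to 0.284 CPM, and in F5, at 1.35 CPM against 0.171 to 0.334 CPM. Of 52 groups of 4 mice examined by Dixon's criterion, these 2 were beyond it, and chance alone gives about 1 in 20. The same mouse was highest of its group in Calml4, Lbp and Foxj1, and had 0 counts of Ttr.

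For Igfbp2, the difference between ERβ cKO (sham) and WT (GDX) itself passed the test; each group is also compared with the same WT (sham) mice. Its log2 fold change was -0.49 ± 0.12 (adjusted p = 0.0518, edgeR), lower in 4 of 4 ERβ cKO (sham) mice than in any WT (GDX) mouse. Igfbp2 was the 1 call among 27 members tested, where 2.22% of all genes were called lower. The call held in 3 of 8 fits without 1 mouse, and its adjusted p was not under 0.05. In the same comparison, 14 of 20 astrocyte genes were called lower (17 by DESeq2), with a median log2 fold change of -0.46, and their part in the Igfbp2 difference was not tested.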

How the results depend on the processing

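In ERβ cKO (sham) against WT (sham), 3 members were called lower. With no filter there were 7, with DESeq2 9, with the exact test 9 and with the likelihood ratio test 11, and leaving out 1 mouse gave 3 to 8, with medians of -1.69 to -1.15. In WT (GDX) against WT (sham), 9 were called, 19 with no filter (and Igfbp2 higher), 15 with DESeq2, 15 with the exact test, 15 with the likelihood ratio test, 5 with all 3 groups in 1 fit, 3 at an adjusted p under 0.05, and 2 to 14 without 1 mouse. The median of -1.67 was -1.30 with filterByExpr, with the filter over all 11 libraries and with all 3 groups in 1 fit, where fewer low genes were tested, and -1.83 to -1.08 without 1 mouse. For ERβ cKO (sham) against WT (GDX), 1 was called, 0 at an adjusted p under 0.05 and 0 to 4 without 1 mouse. The median of 0.06 was -0.032 with filterByExpr and -0.18 to 0.11 without 1 mouse. Over all genes, the fits without 1 mouse called 4 to 37, 4 to 64 and 64 to 1397 lower in the 3 comparisons, in this order. A prior count of 2 changed no call and moved Slc4a5 to -4.03 and Kcnj13 to -3.86 for ERβ cKO (sham). Without Enpp2 the members' share was 0.0281% for ERβ cKO (sham) and 0.0305% for WT (GDX), against 0.0458% for WT (sham). Apart from these constructions, the cause of each move was not tested.

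Whether the mouse numbers pair the samples is not stated. Same-numbered mice had deviations that correlated at -0.09, 0.08 and -0.21 between ERβ cKO (sham) and WT (sham), against -0.17 to 0.14 for other pairs. Between WT (GDX) and WT (sham) these were -0.06, -0.02 and -0.22, against -0.08 to 0.13. Between ERβ cKO (sham) and WT (GDX) they were 0.02, 0.06 and 0.15, against -0.12 to 0.08. So few pairs do not settle the question. In the replicate block, mice whose number is missing from the other group (ERβ cKO (sham) F5, WT (GDX) F2) add nothing to the difference. With this block, 5, 11 and 3 members were called lower in these comparisons, and the median of the third was -0.056. The block turned the log2 fold change in that comparison to -0.065 for Enpp2, 0.034 for Sostdc1 and -0.20 for Slc4a5, and library size alone turned Folr1 to 0.0098.

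Without 1 mouse, small log2 fold changes changed sign. They ran from -0.22 to 0.045 for Rdh5 in ERβ cKO (sham) against WT (sham). In WT (GDX) against WT (sham) they ran from -0.027 to 0.30 for Mfrp, -0.46 to 0.057 for Trpm3 and -0.31 to 0.0071 for Sostdc1. In ERβ cKO (sham) against WT (GDX) they ran from -1.86 to 0.40 for Folr1, -0.12 to 0.67 for Aqp1, -0.41 to 0.21 for 1500015O10Rik, -0.96 to 0.053 for Calml4, -0.026 to 0.36 for Igf2, -0.0032 to 0.42 for Cldn1, -0.50 to 0.62 for Lbp, -0.46 to 1.07 for F5, -0.16 to 0.74 for Slc4a5 and -0.026 to 0.18 for Enpp2. Counts under about 10 per mouse limit the precision of the genes near 0.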
